A study of Mus musculus with 3 samples.

Results

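Cells of the dorsal telencephalic midline that met a rule for intermediate progenitors were split by the transcript of Gmnc. Gmnc is the coiled-coil regulator at the top of the multiciliation programme. Cells with the transcript were compared with cells without it, first in wild-type mouse embryos and then in Gmnc-/- embryos. A cell was a member if it had at least 1000 detected genes, at least 2000 unique molecular identifiers (UMIs, each standing for 1 captured RNA molecule) and at most 10% mitochondrial UMIs. It also had to carry at least 5 UMIs of Neurog2, Eomes and Gadd45g together, under 8 of Tubb3 and Stmn2 per 10000 UMIs and under 20 of Ttr per 10000. The first set of genes marks cells that have begun to leave the progenitor state, and the upper limits keep out neurons and choroid plexus epithelium. Of 33001 cells that passed quality, out of 43081 barcodes, 5258 met the rule. Members with at least 2 Gmnc UMIs are called Gmnc-positive (622 cells), members with 0 are called Gmnc-negative (4289 cells), and cells with exactly 1 were left out.

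The wild type was measured in 2 droplet 3′ libraries of 1 cell suspension, which pooled 4 PGKCre;Rosa26YFP embryos at E11.5 with 4 Wnt3aCre;Rosa26tdTomato embryos at E12.5. For the knockout, 4 Gmnc-/- embryos at E12.5 were pooled into 1 library. Midline tissue of both hemispheres was taken in all cases, and the strain was C57BL/6J. PGKCre acts broadly and Wnt3aCre in the hem lineage, so the reporters mark different cells at the 2 stages. Each genotype was thus 1 biological sample: no test between genotypes or classes was run, and intervals cover counting error only. Stage, transgenes and batch cannot be told apart from genotype. How much of Gmnc is deleted is not stated in the labels, so Gmnc UMIs in the knockout check nothing about the lost protein. They do allow the same choice of cells by transcript in both genotypes.

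Gmnc belongs to the geminin family and acts with the E2F partners E2f4 and E2f5 on target promoters. In multiciliated cells it switches on Mcidas, its close relative, and Ccno, a cyclin-like gene needed to multiply centrioles. Trp73, which encodes the p53 relative p73, and Foxj1, the forkhead factor of motile cilia, act in the same programme. The cortical hem, a strip of midline tissue that secretes Wnt and Bmp proteins, gives rise to Cajal-Retzius neurons, early-born reelin-secreting cells that express Trp73 and do not grow multiple cilia. Intermediate progenitors are the neuron-committed dividing cells between radial glia and neurons.

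The Gmnc-positive class held 116 and 120 cells in wild-type libraries 1 and 2 and 386 in the knockout. The Gmnc-negative class held 1224, 1110 and 1955 cells. Just outside the limit lay 74, 80 and 193 cells with 1 Gmnc UMI, and just inside it 24, 33 and 104 cells with exactly 2. Positive cells made up 8.20% (exact Clopper-Pearson 95% interval 6.83% to 9.76%), 9.16% (7.65% to 10.9%) and 15.2% (13.9% to 16.7%) of the members. With every cell thinned to 6000 UMIs, which left out 16, 12 and 172 shallower cells, the shares were 3.93%, 4.93% and 4.66%, and their intervals overlapped. The median depth of a positive cell was 20357.5 and 20610.5 UMIs in wild-type libraries 1 and 2 against 29283.5 in the knockout library, so no order of the genotypes was read from the unthinned shares.

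By markers outside the rule, the label of intermediate progenitor was met by the positive class but not by the negative class. Of 10 such markers, 6, 5 and 6 were 2-fold above the other cells that passed quality in positive cells (wild-type libraries 1 and 2, then knockout). In negative cells 0 were 2-fold above them in any library, and 4, 4 and 2 were 2-fold below. The summed level of 10 such markers was 1554, 1620 and 1036 CPM (UMIs of the gene per 1000000 UMIs of the class) in positive cells, 738, 710 and 617 CPM in negative cells and 717, 758 and 544 CPM in the other cells. Of the 3 genes that chose the members, Eomes, the transcription factor that defines intermediate progenitors, was detected in 54.3%, 64.2% and 70.7% of positive cells and in 9.97%, 7.93% and 22.6% of negative cells, shares that the rule helped to set. The wild-type negative class entered the rule mainly through Neurog2, detected in 99.2% and 99.5% of its cells. In knockout negative cells Neurog2 was detected in 95.7% and Gadd45g in 89.9%, at means of 6.60 and 7.76 UMIs. The negative class is described here by the rule. Summed radial glia markers lay at 2703, 2629 and 2613 CPM in the positive and 2694, 2717 and 2156 CPM in the negative class.

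Several measures differed between the classes along with Gmnc. The median sum of 9 hem genes (Wnt2b, Wnt3a, Wnt5a, Wnt8b, Rspo1, Rspo2, Rspo3, Lmx1a and Bmp7) was 42.7, 40.5 and 52.2 per 10000 UMIs in positive cells and 8.83, 8.10 and 8.03 in negative cells, so the classes differed in the level of hem genes. Positive cells had a higher median of genes per cell, 5161, 5157.5 and 6141 against 4607, 4781.5 and 5266. Barcodes found in both wild-type libraries numbered 1914, far more than the 78 and 42 shared with the knockout, and the smaller copy held a median of 2.33% of the UMIs of the larger. Of the 236 wild-type positive cells, 96 (40.7%) carried such a barcode, against 23.4% of the negative cells. Of the 96, 1 was the smaller copy. Without any shared barcode 299 genes were at least 2-fold higher and 101 lower in wild-type positive cells, where all barcodes gave 225 and 61. The 3 libraries held 148073906, 139978761 and 259403297 UMIs in all.

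Ccno, Shisa8, Trp73 and Mcidas had the highest wild-type folds after Gmnc. To show the regulatory sequence before them, the 250 bases upstream of Ccno, Mcidas and Shisa8 are printed from the RefSeq promoter table (GRCm38.p6). Capitals mark the letters GTTGCCNNG, a half-site of the kind bound by RFX factors, which act with Foxj1 on cilia genes. The E2F and E-box letters searched below are not marked. Of these, the Ccno window holds TTTCCCGG, read on the other strand, and CAGCTG. The table has 2 windows for Trp73, both inside GENCODE exons and without a match, and these are not printed. Of 2 windows of Deup1, a deuterosome gene, 1 held a match. Each run ends at the base before the RefSeq gene start. The Ccno window is chr13:112987552-112987801 on the plus strand, with the match starting 219 bases before the gene start.
Ccno: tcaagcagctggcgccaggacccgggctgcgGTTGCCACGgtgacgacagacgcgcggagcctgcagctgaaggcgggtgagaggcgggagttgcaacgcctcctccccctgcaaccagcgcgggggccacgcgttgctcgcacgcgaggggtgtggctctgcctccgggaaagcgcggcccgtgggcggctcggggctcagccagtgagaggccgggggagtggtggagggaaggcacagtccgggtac
The Mcidas window, chr13:112993618-112993867 on the plus strand, lies downstream of Ccno on the same strand, and its match starts at base -195. Its last 23 bases overlap an exon of Mcidas in the GENCODE annotation.
Mcidas: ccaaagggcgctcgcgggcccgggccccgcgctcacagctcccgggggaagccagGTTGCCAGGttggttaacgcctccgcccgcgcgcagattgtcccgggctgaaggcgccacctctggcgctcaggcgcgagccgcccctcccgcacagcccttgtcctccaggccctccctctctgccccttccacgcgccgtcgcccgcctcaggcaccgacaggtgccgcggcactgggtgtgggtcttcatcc
The Shisa8 window is chr15:82212816-82213065 on the minus strand, with the match at base -241.
Shisa8: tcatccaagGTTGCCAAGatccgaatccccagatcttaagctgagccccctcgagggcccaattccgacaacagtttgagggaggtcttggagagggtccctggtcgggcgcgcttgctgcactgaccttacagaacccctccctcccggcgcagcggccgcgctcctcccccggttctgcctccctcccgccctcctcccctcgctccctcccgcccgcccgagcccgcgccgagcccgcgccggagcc
Searched on both strands, GTTGCCNNG was found upstream of 4.71% of 27025 genes. It was present for 8 of the 57 genes with a window (14.0%) that were at least 2-fold higher in wild-type positive cells and under 2-fold in the knockout, and for 6 of 107 (5.61%) that were at least 2-fold higher in both. The shorter GTTGCC, which every longer match contains, was found for 11.8% of all genes, 14 of 57 (24.6%) and 14 of 107 (13.1%). The E-box CAGCTG, a proneural factor motif, was found for 14.7% of all genes, 12 of 57 (21.1%) and 23 of 107 (21.5%), and CAGATG for 16.3%, 12.3% and 17.8%. The E2F octamers TTTGGCGC, TTTCCCGC, TTTGGCGG and TTTCCCGG, searched together, were found for 3.1% of all genes, 4 of 57 (7.02%) and 3 of 107 (2.80%). A match is a description of letters and shows no binding.

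Mcidas, Ccno and Trp73 were abundant in wild-type Gmnc-positive cells, scarce in Gmnc-negative cells and at 0 UMIs in the Gmnc-positive cells of the knockout. Foxj1 and Myb, the other regulators of multiciliation that were at least 2-fold higher in the wild type, had lower levels in knockout positive cells. A gene was well measured if the higher class held at least 50 UMIs and 20 CPM, and a wild-type difference had to reach 2-fold in both libraries. Genes that pass only through their high class had to differ, so counts are read beside those of all genes. By this rule 5 of 10 well-measured multiciliation regulators were higher in wild-type positive cells and 0 were lower, against 3.42% and 0.927% of all 6580 well-measured genes. In the knockout 0 of 6 were higher or lower, against 3.33% and 0.741% of 6616 genes. The 5 genes higher in the wild type were not well measured in the knockout, so the 6 are other members. The shares of all genes are the reference for every list count that follows. The median log2 fold of all members with UMIs, Gmnc excluded, was 0.86 in the wild type and -0.02 in knockout cells, beside 0.06 and 0.08 over all genes. Log2 folds are on the log2(CPM + 1) scale.

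Ccno (ENSMUSG00000042417, chromosome 13, 112987802 to 112990777, plus strand) stood at 174 and 194 CPM in the positive cells of wild-type libraries 1 and 2 and at 3.1 and 2.5 CPM in their negative cells. In the knockout it had 0 UMIs in positive cells and 0.064 CPM in negative cells. Both wild-type libraries were high in the positive class and every other class was low. The wild-type fold was 66.3 (95% interval 56.1 to 78.7), a log2 fold of 5.61. Against a floor of 3 counts over the group, wild-type positive cells were 816-fold higher than knockout positive cells, on 1134 UMIs. The exact 95% lower limit of this ratio was 663.

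Mcidas (ENSMUSG00000074651, chromosome 13, 112993845 to 113000394, plus strand), the geminin relative that takes over from Gmnc in multiciliated cells, stood at 69.9 and 67.9 CPM in wild-type positive cells and 1.55 and 1.19 CPM in negative cells. No UMI was found in either knockout class, so no knockout fold exists. The wild-type fold was 50.3 (39.4 to 64.9). By the same floor wild-type positive cells were 304-fold higher than knockout positive cells (exact lower limit 246). Trp73 (ENSMUSG00000029026, chromosome 4, 154056253 to 154140208, minus strand), the p73 gene that marks hem-derived Cajal-Retzius neurons, followed the same pattern. It stood at 61.8 and 75.2 CPM in wild-type positive and 1.41 and 0.91 CPM in wild-type negative cells, with 0 UMIs in both knockout classes. Its wild-type fold was 59.5 (45.9 to 78.4), and the ratio of the positive classes by the floor was 305 (exact lower limit 247). Without any shared barcode (140 positive and 1789 negative wild-type cells) the log2 folds were 6.21 for Ccno, 5.29 for Mcidas and 5.65 for Trp73.

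Foxj1 stood at 122 and 127 CPM in wild-type positive cells and 12.6 and 11.7 CPM in negative cells, a 10.2-fold difference (9.23 to 11.4). In the knockout it stood at 17.0 and 7.72 CPM, a 2.20-fold difference (1.87 to 2.58) below the 20 CPM limit. With negative cells weighted to the hem gene level of the positive ones, as described further on, the knockout difference turned, to 16.99 against 18.8 CPM. Knockout positive cells thus lay near the wild-type negative level. Myb, a transcription factor of cycling and early multiciliated cells, stood at 38.3 and 38.9 CPM in wild-type positive and 10.4 and 10.3 CPM in negative cells. In the knockout it was at 9.21 CPM in positive and 17.3 CPM in negative cells, the opposite order, and under the hem gene weighting at 9.21 against 8.33 CPM, the wild-type order. Members of the programme with other roles did not reach 2-fold in either genotype: the log2 folds were -0.32 and -0.25 for E2f4, 0.08 and 0.13 for E2f5, 0.86 and 0.82 for Rfx3, and -0.21 and -0.31 for Gmnn, the geminin gene itself (wild type, then knockout).

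Counted per cell, Ccno, Mcidas or Trp73 was detected in most wild-type Gmnc-positive cells. At least 1 UMI of the 3 genes was present in 68.1% (58.8% to 76.4%) and 72.5% (63.6% to 80.3%) of wild-type positive cells, and in 5.64% and 6.31% of negative cells. As a measure of free RNA, the share in erythroid cells (at least 20% haemoglobin UMIs) was 4.89% and 2.56%, at a median of 16813 and 18682 UMIs per cell. The negative cells thus lay close to this background in library 1, at a median depth of 18102.5 UMIs, and above it in library 2, at 20044. In the knockout 0 of 386 positive cells had a UMI, which allows a share of up to 0.777% by a floor of 3 counts (exact upper limit 0.951%), and 0.205% of negative and 0.282% of erythroid cells had one. Thinned to 6000 UMIs, the shares were 70.9% and 71.9% of wild-type positive cells and 0 of 110 in the knockout.

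**Figure D1:**
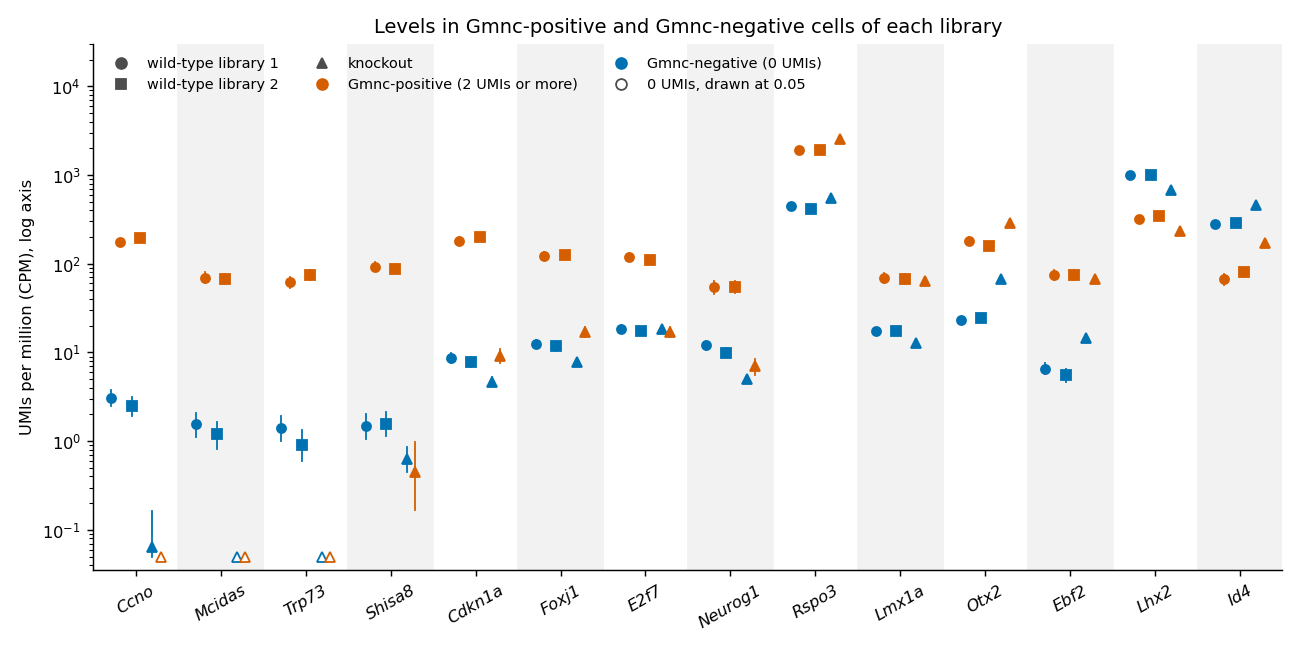
Level of 14 genes in CPM (log axis) in Gmnc-positive (orange) and Gmnc-negative (blue) cells of wild-type library 1 (circles), wild-type library 2 (squares) and the knockout (triangles), with open symbols for 0 UMIs. Ccno, Mcidas and Trp73 are high only in the orange wild-type symbols, whereas Rspo3 is high and Lhx2 low in the positive cells of all 3 libraries.

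Of the genes further down the programme, the deuterosome gene Deup1 was present and the components of motile cilia were barely measured. Deup1, which builds the deuterosomes on which new centrioles form, stood at 26.0 and 26.2 CPM in wild-type positive cells and 0.67 and 0.59 CPM in negative cells. The knockout held 1 Deup1 UMI in each class. Cenpj, a centriole elongation protein, stood at 60.8 and 60.2 CPM against 25.0 and 26.1 CPM in the wild type and at 27.9 against 23.7 CPM in the knockout. These were the only 2 of 9 well-measured deuterosome and centriole genes that were at least 2-fold higher in the wild type, and 0 of 10 were in the knockout. Plk4 (log2 fold 0.49 and -0.21) and Sass6 (0.44 and 0.16), which act in centriole duplication of any dividing cell, did not reach 2-fold. Of 32 matched motile cilia components only 2 were well measured in the wild type and 1 in knockout cells, and 0 reached 2-fold.

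Shisa8, the gene of a transmembrane protein of the Shisa family, had the pattern of these regulators and stood in no list. It was at 92.8 and 87.9 CPM in wild-type positive and 1.48 and 1.57 CPM in wild-type negative cells. In the knockout it was at 0.453 and 0.626 CPM. Positive and negative cells differed 59.1-fold (47.0 to 74.9) in the wild type and 0.72-fold (0.25 to 1.72) in the knockout. Among other genes named by rank, Chrna3, a nicotinic receptor subunit, stood at 54.5 and 69.4 CPM against 2.25 and 2.48 CPM in the wild type and at 11.9 against 1.57 CPM in the knockout. Krt8, an epithelial keratin, stood at 57.3 and 42.3 CPM against 2.04 and 2.45 CPM and, in the knockout, at 12.1 against 1.93 CPM. Chrna3 and Krt8 therefore separated the classes in both genotypes, at a lower level in the knockout.

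The cell cycle inhibitors Cdkn1a and Cdkn1c and the repressor E2f7 were higher in wild-type positive cells, while the genes of S phase and mitosis were not lower by 2-fold. Cdkn1a, which encodes the inhibitor p21 and is a known target of p53 family proteins, stood at 182 and 201 CPM in wild-type positive and 8.63 and 7.84 CPM in negative cells. Knockout positive cells had 9.06 CPM and negative cells 4.67 CPM, so all 4 other classes lay far below the wild-type positive ones. The wild-type fold was 23.3 (20.9 to 26.0) and the knockout fold 1.94 (1.55 to 2.41). Cdkn1c, which encodes the inhibitor p57, stood at 337 and 436 CPM against 45.7 and 54.1 CPM in the wild type and at 160 against 81.2 CPM in the knockout, folds of 7.82 (7.40 to 8.26) and 1.97 (1.87 to 2.07).

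E2f7, an atypical E2F that represses cell cycle genes, stood at 119 and 111 CPM in wild-type positive cells. Every other class was near 18: the wild-type negative cells had 18.5 and 17.7 CPM, knockout positive cells 16.9 CPM and knockout negative cells 18.5 CPM. The fold was 6.35 (5.76 to 6.998) in the wild type and 0.92 (0.79 to 1.06) in the knockout. It was the only 1 of 8 well-measured E2F family genes that reached 2-fold in the wild type, and 0 of 8 did in the knockout. Of 27 well-measured S phase genes and 26 of G2 and M phase, 0 reached 2-fold in either genotype. Their all-member median log2 folds were -0.24 and -0.23 in the wild type and -0.28 and -0.28 in the knockout, beside 0.06 and 0.08 over all genes. Ccnd1, the cyclin that drives entry into S phase, was lower in positive cells of both genotypes, at 43.9 and 53.9 CPM against 127 and 132 CPM in the wild type and 44.5 against 123 CPM in the knockout.

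Genes linked to p53 and p73 differed unevenly. Of 17 well-measured members of the list in the wild type 4 were higher: Cdkn1a, Trp53inp1 (log2 fold 1.82), Bcl2 (1.29) and Bcl2l1 (1.18), the last 2 of which restrain cell death. In the knockout 2 of 14 were higher, Trp53inp1 (1.19) and Bcl2 (1.07). The shares over all well-measured genes were 3.42% and 3.33%. The all-member medians were 0.46 and 0.26. Pidd1, a p53 target outside the list that was chosen after its values were seen, stood at 35.5 and 38.9 CPM against 8.17 and 7.56 CPM in the wild type and at 6.49 against 6.57 CPM in the knockout.

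Several neurogenic genes of the progenitors were higher in wild-type positive cells, and fewer passed the rule in the knockout, some for depth alone. This gap was not tested. Neurog1, a proneural factor, stood at 54.1 and 55.1 CPM in wild-type positive and 12.01 and 9.90 CPM in negative cells, and at 6.95 and 5.02 CPM in the knockout. Insm1, a zinc finger factor of newly committed progenitors, stood at 58.3 and 49.9 CPM against 5.21 and 4.13 CPM in the wild type and at 17.4 against 6.47 CPM in the knockout. For Neurog1 the knockout positive cells lay below the wild-type negative cells, and for Insm1 they lay between the wild-type classes. Leaving out Neurog2, Eomes and Gadd45g, which chose the cells, 7 of 14 well-measured intermediate progenitor genes were higher in the wild type and 3 of 11 in the knockout, with all-member medians of 1.37 and 0.75. Dll3, a Notch pathway inhibitor, had log2 folds of 2.57 and 1.83, Hes6 1.37 and 0.64, Neurod1 2.52 and 0.75, and Rgs16, a regulator of G protein signalling, 2.64 and 1.76. In the knockout Neurog1, Hes6 and Neurod1 did not reach 2-fold. Insm1 and Dll3 did, but at 17.4 and 16.7 CPM in positive cells they lay under the limit of 20 CPM. With negative cells weighted over bins of the summed Neurog2, Eomes and Gadd45g the knockout log2 folds of Neurod1 and Neurog1 were -0.35 and -0.45. Of Notch and proneural genes 4 of 17 were higher in the wild type and 0 of 14 in the knockout, with equal medians near 0.35 and 0.36. For both lists the reference is 3.42% and 3.33% of all well-measured genes.

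Over all genes, the 2 genotypes shared much of the contrast. In the wild type 225 genes were at least 2-fold higher and 61 lower in Gmnc-positive cells, and in the knockout 220 were higher and 49 lower, Gmnc included. Higher in both were 137 genes, 60.9% of the wild-type genes and 62.3% of those in the knockout, and lower in both were 32, 52.5% and 65.3%. None was higher in one genotype and lower in the other by 2-fold. Of the 224 wild-type genes other than Gmnc, 153 were at least 2-fold higher in the knockout too when depth was disregarded, 62 were higher by less, and 9 were at 0 or in the other direction. For 41 of the 224 the wild-type log2 fold exceeded the knockout one by at least 1, and the difference itself was not tested. Higher calls made up 78.7% of wild-type and 81.8% of knockout calls. With cells thinned to 6000 UMIs they made up 49.8% (130 higher, 131 lower) and 37.1% (75 and 127). In wild-type cells without an eYFP UMI they made up 67.8% (183 and 87). These settings left 119, 110 and 61 positive cells. With so few, 50 UMIs stood for more than 20 CPM, so higher calls needed more than lower ones. The balance of directions was therefore not read. Scaling by the median ratio of genes in place of total UMIs shifts all log2 folds down by 0.09 in the wild type and 0.14 in knockout cells.

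**Figure D2:**
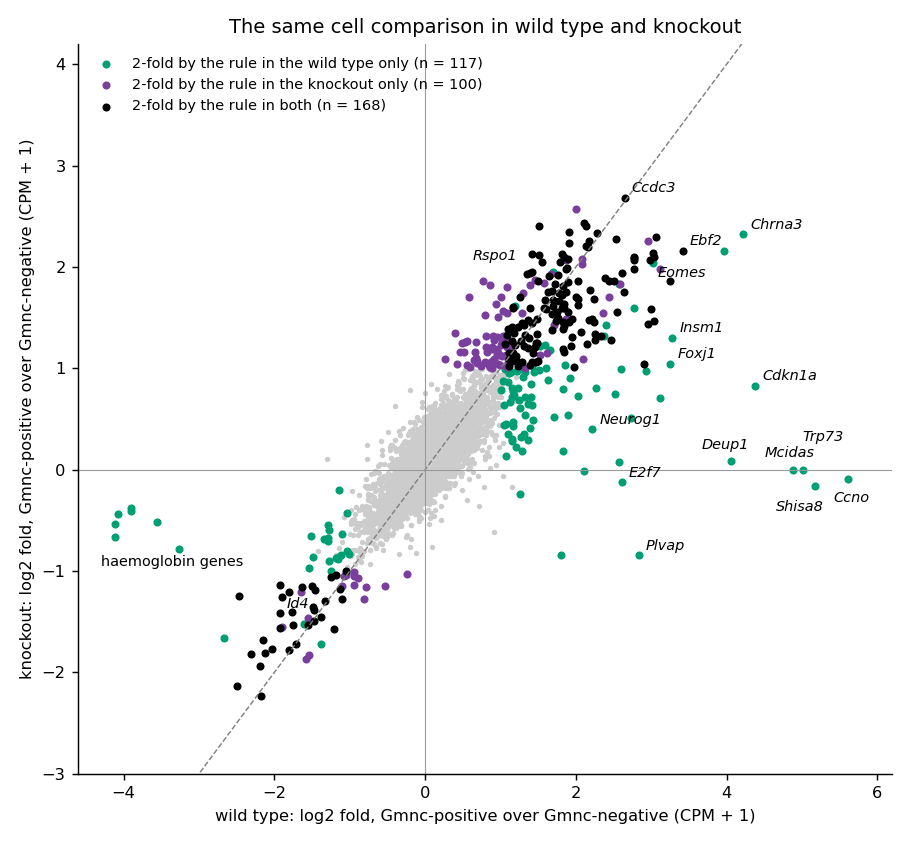
Log2 fold, Gmnc-positive against Gmnc-negative cells, on the log2(CPM + 1) scale, in the wild type (x axis) and the knockout (y axis); each point is a well-measured gene, Gmnc excluded. Green genes reached 2-fold in the wild type only (117), purple in the knockout only (100) and black in both (168), and the dashed line marks equal folds; Ccno, Trp73, Mcidas and Shisa8 lie at the right near 0 on the y axis, and the haemoglobin genes at the far left.

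The hem signalling genes separated the classes in both genotypes. Of 28 well-measured hem genes 21 were higher in wild-type and 22 in knockout positive cells, 19 of them in both, with 0 lower. Over all well-measured genes 3.42% and 3.33% were higher. The all-member medians of the hem list were 1.396 and 1.504. Rspo3, a secreted amplifier of Wnt signalling, stood at 1898 and 1897 CPM in wild-type positive and 447 and 418 CPM in negative cells, and at 2523 and 546 CPM in the knockout. All 3 positive classes were high and all 3 negative classes low. The folds were 4.39 (4.29 to 4.48) and 4.62 (4.55 to 4.69), and the wild-type log2 fold was 2.13, or 2.44 without any shared barcode.

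Other secreted factors of the hem had the same pattern. Rspo2 stood at 355 and 377 CPM in wild-type positive cells and 82.7 and 85.9 CPM in negative cells, and at 441 against 80.9 CPM in the knockout. Wnt3a, the ligand that defines the hem, stood at 53.1 and 62.7 CPM against 15.3 and 16.1 CPM, and at 44.7 against 9.44 CPM in the knockout. Lmx1a, the LIM homeodomain factor of the hem, stood at 69.2 and 66.9 CPM against 17.4 and 17.4 CPM, and at 63.4 against 12.7 CPM. Rspo2, Wnt3a and Lmx1a were among the 137 genes higher in both genotypes. Rspo1 separated the classes less, at 960 and 1046 against 389 and 397 CPM in the wild type and 927 against 243 CPM in the knockout. Wnt8b reached 2-fold in the knockout alone (log2 fold 0.67 and 1.11). With cells thinned to 6000 UMIs the log2 folds of Rspo1 were 0.21 and 0.68, those of Rspo3 1.94 and 1.67, and those of Lmx1a 1.39 and 1.29. Among single genes of Bmp and Wnt signalling, picked with their values known, the log2 folds were 1.90 and 2.07 for Id1, 1.84 and 1.42 for Msx1, 1.09 and 1.33 for Axin2, and -0.76 and -0.59 for the Wnt effector Lef1.

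Some genes of the pallium next to the hem were lower in positive cells of both genotypes. Lhx2, the selector of cortical identity over hem, stood at 322 and 349 CPM in wild-type positive and 992 and 991 CPM in negative cells, and at 232 against 673 CPM in the knockout. It was 2.94-fold lower (2.82 to 3.08) in the wild type and 2.90-fold lower (2.80 to 3.01) in the knockout. Lhx2 was among the 32 genes lower in both genotypes. Of 17 well-measured genes of the pallium outside the hem, 4 were lower and 2 higher in the wild type, and 3 of 16 lower and 2 higher in the knockout. Id4, an inhibitor of basic helix-loop-helix factors in progenitors, was 3.82-fold lower (3.48 to 4.2) and 2.67-fold lower (2.56 to 2.79). Of 23 radial glia genes 5 were lower and 1 higher in the wild type, and of 24 in the knockout 5 and 1. The shares over all well-measured genes were 0.927% lower and 3.42% higher in the wild type and 0.741% and 3.33% in the knockout. Sox3 (log2 fold -1.76 and -1.40) was lower while Sox2 (-0.02 and 0.52) and Vim (-0.01 and 0.11) were close to level.

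Genes of Cajal-Retzius identity were higher in positive cells of both genotypes, although Trp73 and Cdkn1a did not reach 2-fold in the knockout. Of 16 well-measured members 15 were higher in the wild type and 13 of 15 in the knockout, with all-member medians of 1.90 and 1.31 and 0 lower. Over all well-measured genes 3.42% and 3.33% were higher. The list shares its Zic genes and Rspo1 with the hem list. Ebf2, a factor of Cajal-Retzius neurons, stood at 74.5 and 74.5 CPM in wild-type positive and 6.59 and 5.53 CPM in negative cells, and at 67.7 against 14.4 CPM in the knockout. Nhlh2, a neuronal helix-loop-helix factor, stood at 41.5 and 49.9 CPM against 4.65 and 4.76 CPM, and at 65.7 against 14.5 CPM. For Nhlh2 the knockout positive cells lay above the wild-type positive cells, and for Ebf2 they lay somewhat below them.

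Reln, which encodes the secreted reelin protein, stood at 20.03 and 19.8 CPM in wild-type positive cells, just below the depth limit in the mean, and 2.47 and 2.52 CPM in negative cells. In the knockout it stood at 21.4 against 5.30 CPM. Lhx1 was low in all classes, at 8.08 and 8.52 CPM against 0.423 and 0.560 CPM, and at 4.30 against 0.273 CPM. Lhx5, its relative in hem-derived neurons, had log2 folds of 1.78 and 1.75. Of 18 well-measured early neuron genes 7 were higher in the wild type, and of 17 in the knockout 6, all of which were among the wild-type genes; the log2 folds were 2.15 and 1.24 for Dcx and 3.04 and 1.47 for Neurod2. Without the upper limits on neuron and choroid plexus genes the log2 folds of Ebf2 were 0.99 and 0.79, those of Nhlh2 0.61 and 0.61 and those of Neurod2 0.39 and 0.10; this setting admits neurons to both classes.

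**Figure D3:**
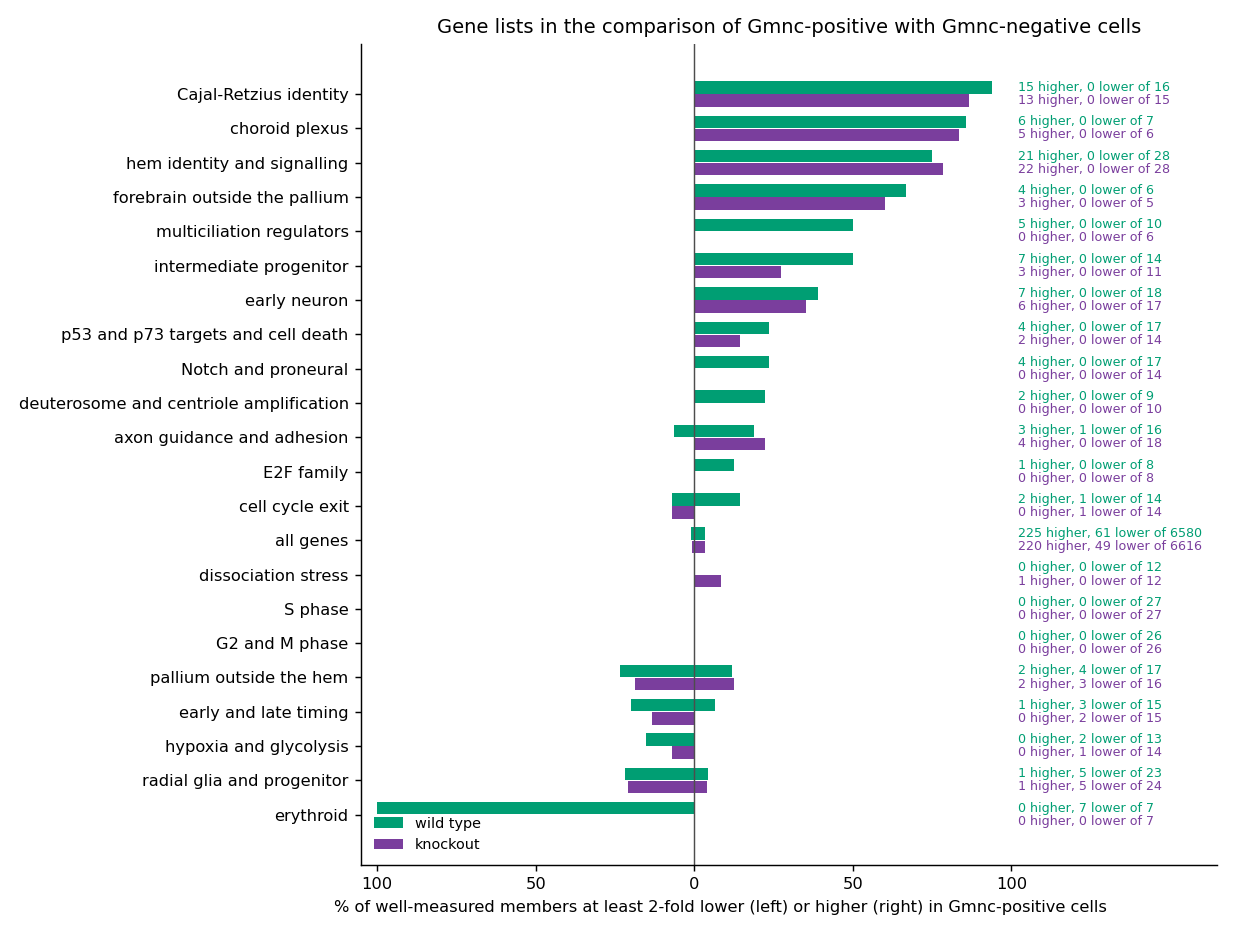
Percent of well-measured members of gene lists that were at least 2-fold higher (to the right) or lower (to the left) in Gmnc-positive cells of the wild type and the knockout, with the counts printed beside the bars and all genes as a reference. Only lists with at least 5 well-measured members in both genotypes are drawn. Multiciliation regulators reached 5 of 10 in the wild type and 0 of 6 in the knockout, while hem genes reached 21 and 22 of 28. The 5 regulators are not among the 6 that were well measured in the knockout.

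Because the classes differed in hem genes, negative cells were also weighted so that their spread over 10 bins of the 9 summed hem genes matched that of the positive cells, a choice made after the data had been seen. Under this weighting 70 genes were at least 2-fold higher and 8 lower in the wild type, and 24 and 0 in the knockout, with 17 higher in both. The hem list, which holds the 9 weighted genes, then had 0 of 28 at 2-fold in both genotypes. Rspo3, which is among the 9 weighted genes, stood at log2 folds of 0.40 and 0.12, so its fall is no separate result. Lhx2, which is not among the 9, stood at -0.29 and 0.00015. The multiciliation regulators remained at 5 of 10 in the wild type and 0 of 6 in the knockout, where none of the 5 was well measured. Ccno stood at 4.65 in the wild type and -0.04 in knockout cells, Trp73 at 4.12 and 0, Shisa8 at 4.40 and 0.24, Cdkn1a at 3.53 and 0.79 and E2f7 at 2.29 and 0.27. Neuronal and progenitor genes kept a difference in both genotypes: Nhlh2 stood at 2.63 and 2.49, Ebf2 at 2.57 and 1.97, Neurod1 at 2.60 and 2.12 and Insm1 at 3.13 and 1.69. Of the Cajal-Retzius list 7 of 16 were then higher in the wild type and 5 of 15 in the knockout, and of the early neuron list 5 of 18 and 5 of 17. Some genes of the contrast thus differed by 2-fold between cells of like hem gene level. Others did not, among them Lhx2, while for the 9 weighted genes the weighting itself set this.

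**Figure D4:**
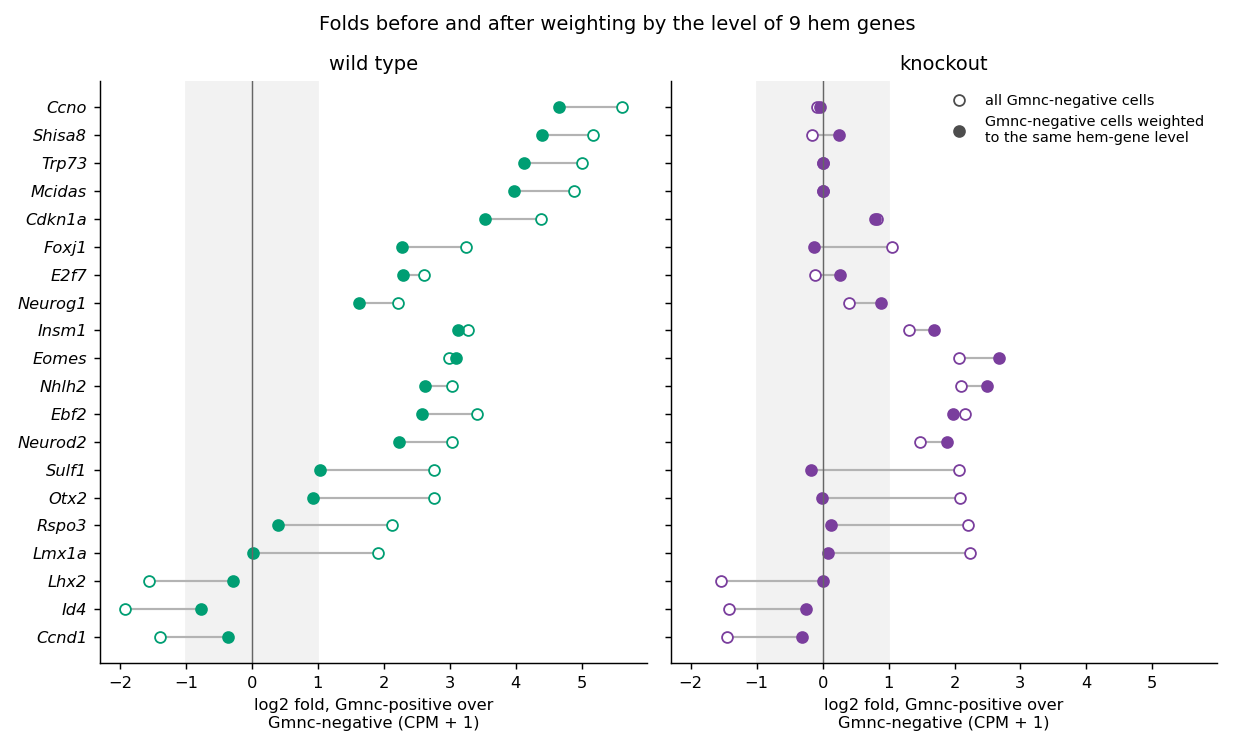
Log2 fold of 20 genes, Gmnc-positive against Gmnc-negative cells, with all negative cells (open symbols) and with negative cells weighted to the hem gene level of the positive cells (filled symbols), in the wild type and the knockout; the grey band marks folds under 2. Rspo3, Lmx1a and Lhx2 move into the band in both genotypes, and Ccno, Mcidas and Trp73 stay far outside it in the wild type. Rspo3 and Lmx1a are among the hem genes that set the weighting, and Lhx2 is not.

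Levels also differed by the number of Gmnc UMIs per cell, without a steady rise over the upper bins in the wild type. In bins of 0, 1, 2, 3 to 4 and at least 5 Gmnc UMIs, Ccno stood at 3.1, 56.05, 78.0, 229 and 182 CPM in wild-type library 1 and at 2.48, 61.3, 190, 194 and 196 CPM in library 2. In the knockout it stood at 0.064, 0.477, 0, 0 and 0 CPM. The cells with 1 Gmnc UMI, which belong to neither class, thus lay between the classes in the wild type. E2f7 went from 18.5 over 51.4, 90.5 and 109 to 141 CPM in library 1 and from 17.7 over 54.4, 114 and 116 to 108 CPM in library 2, and stayed between 11.9 and 19.0 CPM in all knockout bins. Cdkn1a was highest at 3 to 4 Gmnc UMIs in library 1 (249 CPM, then 155) and at 2 in library 2 (266, then 194 and 183 CPM). Rspo3 went from 546 over 1558, 2082 and 2364 to 2846 CPM in the knockout, while Lhx2 went from 673 over 427, 315 and 246 to 179 CPM. In wild-type library 1 Rspo3 stood at 447, 1444, 2115, 1765 and 1886 CPM and Lhx2 at 992, 529, 223, 421 and 299.9 CPM, and in library 2 Rspo3 at 418, 1287, 1803, 1786 and 1989 CPM and Lhx2 at 991, 634, 453, 284 and 349.8 CPM. The smallest bin held 24 cells, and the bins also differed in median depth, from 14684 to 25939.5 UMIs in wild-type bins and from 23895 to 31011.5 in knockout bins.

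**Figure D5:**
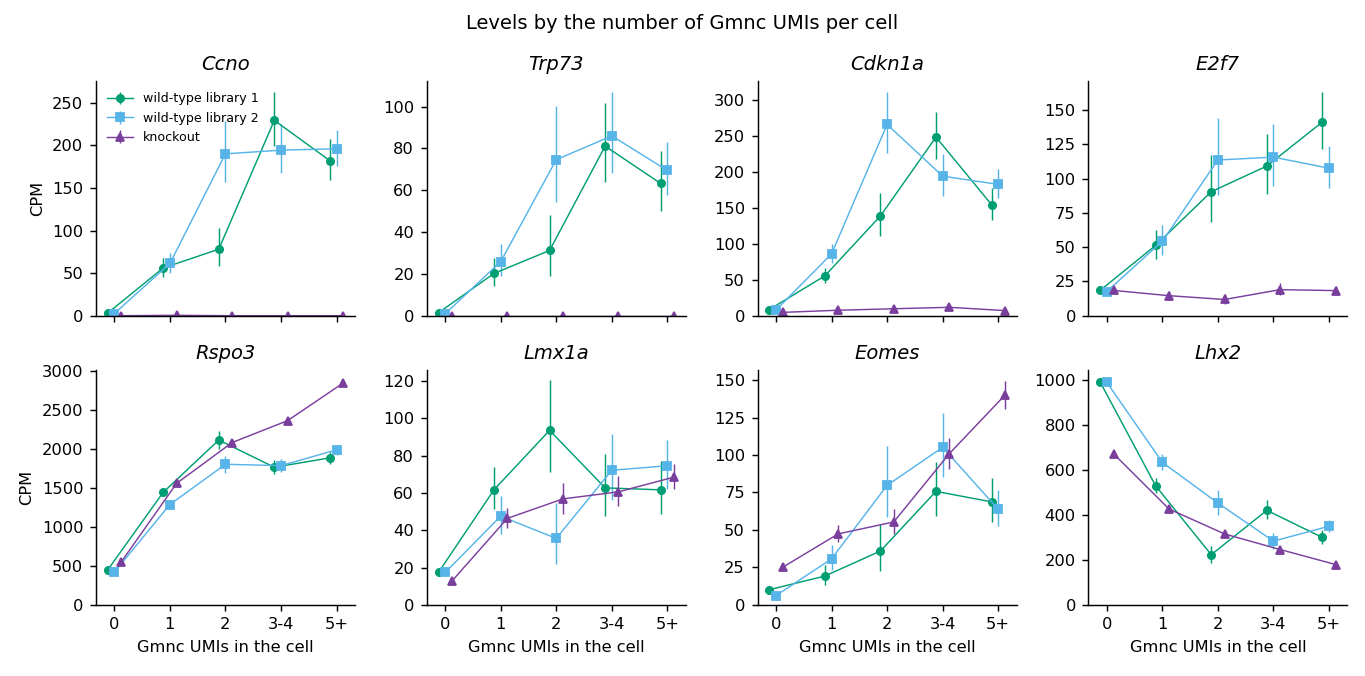
Level of 8 genes (CPM) in members grouped by Gmnc UMIs per cell (0, 1, 2, 3 to 4, at least 5) in the 3 libraries, with exact Poisson 95% intervals as bars. Ccno, Trp73, Cdkn1a and E2f7 are higher in every wild-type bin with a Gmnc UMI than in the bin with 0, level off or fall in some of the upper bins, and stay low in the knockout, while Rspo3 is higher and Lhx2 lower in every bin with a Gmnc UMI than in the bin with 0, in all 3.

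Markers of other cell types differed between the classes. The 4 defining choroid plexus markers summed to 265, 254 and 361 CPM in positive, 44.4, 44.6 and 89.9 CPM in negative and 295, 310 and 373 CPM in other cells, with 1 marker at 0 in the positive cells of library 1. In the wider list of choroid plexus genes 6 of 7 were higher in the wild type and 5 of 6 in the knockout: Otx2, the homeodomain factor of that epithelium and of the hem, stood at 181 and 157 CPM against 23.4 and 24.6 CPM, and at 285 against 66.4 CPM. Mesenchyme markers summed to 33.0, 2.74 and 24.5 CPM in positive and 3.24, 10.4 and 9.39 CPM in negative cells, higher in the positive class of 2 of the 3 libraries. Vessel markers summed to 15.1, 9.13 and 24.4 CPM against 2.04, 2.97 and 5.84 CPM, higher in all 3. Kdr made up most of the positive sums, at 10.9, 6.69 and 23.6 CPM. Pecam1 stood at 4.22, 1.52 and 0.755 CPM against 1.06, 1.22 and 0.562 CPM, and Cldn5 was at 0 in positive cells of library 1 and the knockout. Microglia markers summed to 1.76, 0.304 and 8.68 CPM against 0.493, 4.72 and 8.68 CPM. The part of these cells in the results was not tested. Cells with at least 3 UMIs of 12 genes of other types made up 31.0%, 38.3% and 45.6% of positive and 6.62%, 7.03% and 12.02% of negative cells. Without them 244 genes were higher and 58 lower in the wild type and 192 and 29 in the knockout, 137 of them higher in both. Whether cells or free RNA of the choroid plexus contribute to the higher Otx2, Sulf1 and Folr1 was not tested.

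Haemoglobin made up most of the lowest folds in the wild type: all 7 well-measured erythroid genes were lower in positive cells, and 0 of 7 in the knockout. In negative cells haemoglobin stood at 3955 and 2578 CPM, of which 11 and 7 cells held 94.6% and 92.8%. Without those cells the level was 218 and 186 CPM, beside 221 and 192 CPM in positive cells. Stress genes of dissociation differed little, with 0 of 12 at 2-fold in the wild type and 1 of 12 in the knockout (Egr1, log2 fold 1.19). Glycolysis and hypoxia genes were lower for 2 of 13 in the wild type, Ldha (-1.10) and Pdk1 (-1.29), and for 1 of 14 in the knockout, Hk2 (-1.03). Over all well-measured genes 0.927% and 0.741% were lower. The all-member medians of this list were -0.45 and -0.30.

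The wild-type libraries also held the reporter transcripts. The tdTomato transcript, switched on by Wnt3aCre in the E12.5 embryos, stood at 94.6 and 93.5 CPM in positive and 25.5 and 26.1 CPM in negative cells and was detected in 29.3% and 27.5% of positive against 16.7% and 18.5% of negative cells. The eYFP transcript of the E11.5 embryos stood at 349 and 299 CPM in positive and 352 and 346 CPM in negative cells, detected in 75.9% and 72.5% against 61.8% and 61.7%. In erythroid cells tdTomato was detected in 4.44% and 7.18% (3.72 and 4.88 CPM) and eYFP in 58.7% and 54.9% (219 and 191 CPM). Since the reporters came from different embryos, a cell should hold only 1 of them. Both were detected in 9.48% and 9.17% of positive, 4.25% and 4.41% of negative and 1.78% and 1.54% of erythroid cells, so detection of a reporter does not assign a cell to a stage. The tdTomato level was thus higher in positive cells of both libraries, whereas the eYFP level was nearly equal in library 1 and lower in the positive cells of library 2. Among wild-type cells without an eYFP UMI, 61 positive and 892 negative, 153 of the 183 higher genes were among the 225 of all cells.

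The 83 genes at least 2-fold higher in the knockout and not called in the wild type all had wild-type log2 folds above 0, with a median of 0.97, and for 38 it was at least 1 (low depth, or under 2-fold in 1 library, kept them from the call). Unc5c, a netrin receptor of axon guidance, had log2 folds of 1.67 in the wild type and 1.93 in knockout cells, Cbfa2t3, a transcriptional corepressor, 3.12 and 1.98, and Kdr, a Vegf receptor of vessels, 2.08 and 2.08. Dcc, the other netrin receptor, was higher in both (1.83 and 1.39), as was the ephrin receptor Epha3 (2.01 and 1.71). In all, 3 of 16 axon guidance genes were higher and 1 lower in the wild type, and 4 of 18 higher in the knockout. The shares over all well-measured genes were 3.42%, 0.927% and 3.33%. Ccdc3, which encodes a secreted protein, had the highest knockout log2 fold after Gmnc (2.68, and 2.65 in the wild type), at 25.0 and 29.5 CPM against 3.49 and 3.53 CPM in the wild type and 55.05 against 7.74 CPM in the knockout. The timing genes divided, with Zbtb20 higher (1.11) and Hmga2 (-1.04), Aldoc (-1.93) and Mt3 (-1.13) lower in the wild type, and Aldoc (-1.14) and Mt3 (-1.18) lower in the knockout.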

How the data were processed

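The authors deposited UMI counts per gene and cell barcode for 3 droplet libraries (10x 3′ chemistry, about 20000 cells loaded and 10000 targeted per library, per the labels). Cell Ranger 3.1.0 is named per the submitters' processing notes, together with the build mm10; the header of the knockout file names 6.0.0, per the file headers. Neither the annotation release nor the extent of the deletion is stated in these sources. Since both wild-type libraries came from 1 suspension, they were averaged as technical repeats and stand for 1 sample.

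Features with the same Ensembl ID in all 3 libraries (27040) were used, and positions came from GENCODE vM21 on GRCm38. Within each library the counts of all cells of a class were added up and scaled to the class total (CPM, computed here). Levels have exact Poisson intervals, shares exact Clopper-Pearson intervals and ratios intervals conditional on the summed counts, all at 95%. For log2 folds 1 CPM was added to both sides. Where 1 side had 0 UMIs, a value was computed with a floor of 3 counts, and the exact limit is given beside it. Genes were called at 2-fold if well measured (at least 50 UMIs and 20 CPM in the higher class) and, in the wild type, if both libraries met it; no p-value was computed. No doublet caller was run: cells with at least 3 UMIs of 12 genes of other cell types were counted and left out as an alternative. The folds and calls were tested on simulated data.

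Genes were named by rule: the 12 highest and 12 lowest wild-type calls, the 6 with the largest and the 6 with the smallest gap to the knockout, the 6 highest and 6 lowest knockout calls, up to 4 members of each of 23 lists, and a few fixed names, 104 in all. Selection genes and mitochondrial, ribosomal, haemoglobin, sex-linked and predicted genes were left out of the ranks. 1 gene is left out of the text. Other names (Wnt3a, Myb, Pidd1, Id1, Msx1, Axin2, Lef1, E2f4, E2f5, Rfx3, Gmnn, Dcx, Sox2, Vim, Folr1, Csrp2) were chosen after their values were seen, all but Pidd1 and Csrp2 from the lists. The members and lists were chosen with earlier results of these data known. Alternatives changed 1 choice at a time in 27 settings, 5 of them added after seeing the data. Python 3.11.15, NumPy 2.4.6, SciPy 1.17.1, pandas 2.3.3 and matplotlib 3.10.9 were used.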

Additional observations from a re-analysis of the deposited data

Results flagged for a closer look

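Of the 224 genes other than Gmnc that were at least 2-fold higher in wild-type Gmnc-positive cells, 9 were at 0 or in the opposite order in the knockout. Given here are 3 genes in the opposite order. The difference between the genotypes was not tested, and each genotype is 1 sample. Myb had a log2 fold of 1.80 in wild-type cells and -0.84 in the knockout, where the ratio of the classes was 0.53 (95% interval 0.44 to 0.64). Csrp2, which encodes a small LIM-domain protein, stood at 541 and 540 CPM against 229 and 220 CPM in the wild type (log2 fold 1.26) and at 208 against 246 CPM in the knockout (log2 fold -0.24, ratio 0.84, 0.81 to 0.88). Plvap, known as a protein of fenestrated vessels, stood at 22.5 and 21.0 CPM against 1.83 and 2.55 CPM in the wild type (log2 fold 2.83) and at 0.604 against 1.88 CPM in the knockout (log2 fold -0.84, ratio 0.32, 0.14 to 0.65), on 8 UMIs in knockout positive cells. With negative cells weighted to the hem gene level of the positive ones, the knockout log2 folds were 0.13 for Myb and 0.11 for Csrp2, no longer in the opposite order, and -0.33 for Plvap; the wild-type ones were 2.03, 1.001 and 2.46.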

How the results depend on the processing

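No paired analysis was possible because the knockout has 1 library and no test was run. Of 160 values that answer a comparison under 27 settings, 112 stayed within 1.5 times the reported count or within counting error of the reported share, and 48 did not. Leaving out wild-type replicate 1 or 2 gave 252 to 266 higher, 78 to 80 lower and 145 to 148 shared genes. With Gmnc-positive set at 1 UMI, 34 genes were lower in the wild type, 29 in the knockout, and the shares were 13.4%, 15.3% and 22.8%; at 3 UMIs the shares were 6.51%, 6.64% and 11.1%. Thinned to 6000 UMIs, 130 genes were higher and 131 lower in wild-type cells, 75 and 127 in the knockout and 41 higher in both, with shares of 3.93%, 4.93% and 4.66%. Wild-type cells without eYFP gave shares of 5.37% and 6.86%, at least 10 marker UMIs 12.9%, 16.02% and 22.97%, and the strict quality limits 6.19% and 5.92% in the wild type. Without the upper limits on neuron and choroid plexus genes the shares were 16.05%, 16.8% and 19.8%, with 27 lower genes in the knockout and 85 higher in both. Without cells that carry genes of other types 29 were lower in the knockout. A depth limit of 20 UMIs and 10 CPM gave 209 higher in both, and one of 100 UMIs and 50 CPM gave 106 higher and 36 lower in wild-type cells, 107 and 29 in the knockout and 59 in both. Without shared barcodes 101 were lower in the wild type, with shares of 6.36% and 7.58%.

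Weighting by hem genes gave 70 higher and 8 lower in wild-type cells, 24 and 0 in the knockout and 17 in both. Restricting both classes to at least 20 hem gene UMIs per 10000 gave 69 and 11, 21 and 13, and 16. Among log2 folds called at 2-fold, 29 changed sign, all in these hem settings, and the cause was not tested. They include Rspo1, Rspo2 and Wnt8b, which are among the summed hem genes that define these settings. Of log2 folds that were not called, 108 changed sign over all settings, 15 of them under the weighting, among them knockout values of -0.14 for Foxj1, 0.27 for E2f7, 0.24 for Shisa8 and 0.41 for the erythroid list median. Of the called ones, the wild-type values under the weighting became 0.15 for Meis2, -0.23 for Fzd10, -0.32 for Dkk3, -0.37 for Rspo1, -0.31 for Sertm1, -0.22 for Khdrbs2, -0.038 for Wnt9a, -0.024 for Zbtb20 and -0.038 for the hem list median. The knockout values became 0.088 for Mt1, 0.0019 for Aldoc, 0.00015 for Lhx2, 0.17 for Meis2, -0.080 for Rspo1, -0.035 for Rspo2, -0.016 for Wnt9a, -0.083 for Nr2f2, -0.013 for Otx2, -0.48 for Six3, -0.046 for Bcl2, -0.17 for Sulf1, -0.084 for Wnt8b and -0.024 for the hem list median. Under the restriction the wild-type values became -0.0696 for Fzd10, -0.24 for Dkk3, -0.22 for Rspo1, -0.13 for Sertm1 and -0.15 for Khdrbs2, and the knockout value -0.18 for Six3. With 116 and 120 positive cells in the wild type, no gene under 20 CPM was called by the rule, and lower levels are given as values.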
